A study of Mus musculus with 6 samples.

Results

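Long complementarity determining regions 3 (CDR3) of T cell receptor (TCR) β chains were described here in tumors and spleens of C57BL/6 mice. A CDR3 was called long when its amino acid sequence had 17 or more residues, counted from the conserved cysteine to the closing phenylalanine or tryptophan, with no stop or frame mark. The 6 sequenced libraries held 4718 distinct long clonotypes, a clonotype being 1 combination of V gene, J gene and CDR3, of 177503 distinct clonotypes with the same ends and any length. Counted library by library these were 4768 of 188602 entries with the same ends and no mark.

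The mice had received 100000 cells of MO4, a subline of the B16F10 melanoma that expresses ovalbumin, beneath the skin of each hindlimb on day 0. The cells that the labels name IFN-α-iPSC-pMCs were injected beside the right tumor, 1000000 cells at a time, on days 5 to 7 and again on days 12 and 13, and total RNA was taken on day 14. The right tumor is called treated and the left tumor distant, and the spleen is the third tissue. Each tissue gave 2 libraries, numbered 1 and 2, and the design names 2 mice, so the 4 tumors came in pairs and all 6 libraries came from mice that had received the cells. No library from untreated mice was used here, and the files hold receptor sequences only, so the tissue labels could not be compared with marker transcripts.

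The β chain gene is assembled in the thymus by joining a V, a D and a J segment on mouse chromosome 6. Nucleases trim the segment ends and an enzyme adds bases without a template, and the CDR3 spans that junction. The CDR3 loop is the part of the β chain that mostly contacts the peptide held by the MHC molecule. A long CDR3 can hold more of the germline segments, more added residues, or both. In ordinary repertoires CDR3 lengths form a bell-shaped distribution, and the long CDR3 are its upper tail.

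The J segment brings the last residues of the CDR3, so the germline segments that the results turn on are shown first. They are from the GENCODE M21 annotation of GRCm38, all on the plus strand of chromosome 6, 5′ to 3′, and the capitals mark the bases that can enter the CDR3, up to the codon of its last phenylalanine. The first 3 encode 6 CDR3 residues and were the J genes found less often in long CDR3. TRBJ1-1 lies at chr6:41533864-41533911, TRBJ1-2 at chr6:41534001-41534048 and TRBJ2-7 at chr6:41543810-41543856. The next 4 encode 7 residues and were found more often. TRBJ2-1 lies at chr6:41542754-41542803, TRBJ2-2 at chr6:41542957-41543007, TRBJ2-3 at chr6:41543223-41543271 and TRBJ2-4 at chr6:41543362-41543410. TRBJ1-6, at chr6:41535554-41535606, encodes 8 residues and is the longest. The D segments TRBD1 at chr6:41533201-41533212 and TRBD2 at chr6:41542163-41542176 are shown in lower case because any frame of them can be read.
TRBJ1-1: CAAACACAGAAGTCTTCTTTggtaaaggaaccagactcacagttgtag
TRBJ1-2: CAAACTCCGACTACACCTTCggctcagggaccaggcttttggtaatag
TRBJ2-7: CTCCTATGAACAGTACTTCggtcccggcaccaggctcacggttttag
TRBJ2-1: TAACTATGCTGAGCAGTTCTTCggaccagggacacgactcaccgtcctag
TRBJ2-2: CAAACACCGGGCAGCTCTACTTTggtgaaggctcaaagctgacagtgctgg
TRBJ2-3: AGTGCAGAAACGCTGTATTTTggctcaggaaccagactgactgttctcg
TRBJ2-4: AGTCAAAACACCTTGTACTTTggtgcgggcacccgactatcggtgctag
TRBJ1-6: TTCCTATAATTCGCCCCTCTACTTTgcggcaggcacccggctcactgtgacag
TRBD1: gggacagggggc
TRBD2: gggactgggggggc

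Long CDR3 were a small class in every library, and their share of the reads was lower than their share of the clonotypes in all 6. Of 11195 clonotypes in treated tumor 1, 234 were long (2.09%, 95% Wilson interval 1.84 to 2.37), and of 9894 in distant tumor 1, 163 (1.65%, 1.41 to 1.92). In treated tumor 2 there were 173 of 6565 (2.64%, 2.27 to 3.05) and in distant tumor 2, 183 of 9213 (1.99%, 1.72 to 2.29). Spleen 1 held 1700 of 62571 (2.72%, 2.59 to 2.85) and spleen 2 held 2315 of 89164 (2.60%, 2.49 to 2.70). The spleens were close to each other and the tumors were spread over a wider range, with treated tumor 2 inside the range of the spleens. The intervals cover counting error only, since the reads carried no molecular identifiers.

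By reads, long CDR3 took 1175 of 81455 reads in treated tumor 1 (1.44%, 1.36 to 1.53) and 811 of 80662 in distant tumor 1 (1.01%, 0.939 to 1.08). They took 1188 of 55016 in treated tumor 2 (2.16%, 2.04 to 2.28) and 530 of 41115 in distant tumor 2 (1.29%, 1.18 to 1.40). In the spleens they took 2297 of 94728 (2.42%, 2.33 to 2.52) and 3119 of 132494 (2.35%, 2.27 to 2.44). All 4 tumors lay below both spleens. The RNA was from whole tissue, so more T cells of a clonotype and more receptor RNA per cell cannot be told apart.

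The treated tumor had the higher share of long CDR3 than the distant tumor of the same number in both pairs, by 0.443 and 0.649 percentage points of clonotypes and by 0.437 and 0.870 points of reads. The group means were 2.36% ± 0.385 against 1.82% ± 0.240 of clonotypes and 1.80% ± 0.507 against 1.15% ± 0.201 of reads (SD, n = 2). With 2 libraries against 2 the exact two-sided permutation test gave p = 0.333 for both, the smallest it can give. Between tumors and spleens the shares were 2.09% ± 0.410 (n = 4) and 2.66% ± 0.0853 (n = 2) of clonotypes, exact permutation p = 0.267, and 1.47% ± 0.491 and 2.39% ± 0.050 of reads, exact permutation p = 0.133, where 0.0667 is the smallest possible. All 4 comparisons had an adjusted p of 0.333 in these exact tests. Without the largest long clonotype of each library the read share of the treated tumors exceeded that of the distant tumors by 0.377 in place of 0.654 points.

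**Figure D1:**
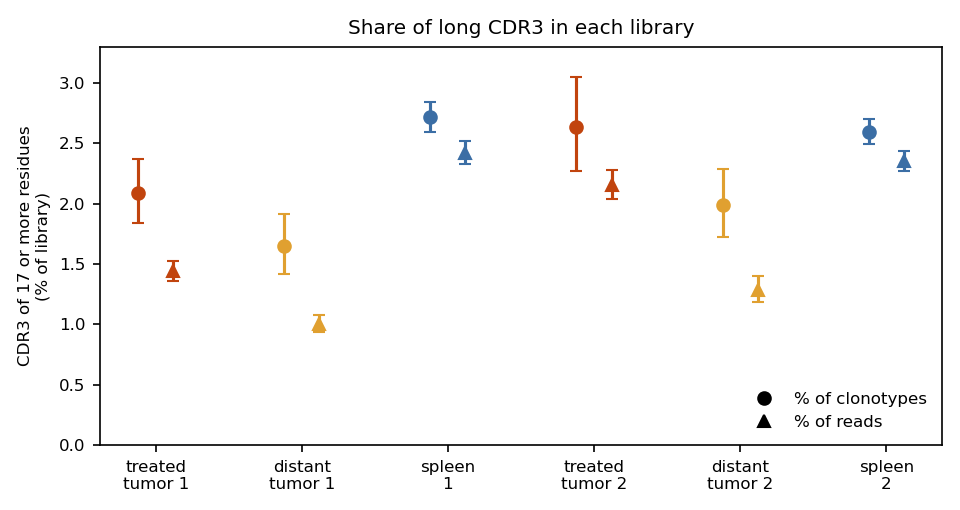
Share of long CDR3 in each of the 6 libraries, in percent of clonotypes (circles) and of reads (triangles), with 95% Wilson intervals for counting error. By reads all 4 tumors, at 1.01% to 2.16%, lie below the spleens at 2.35% and 2.42%, and each treated tumor lies above the distant tumor of its number.

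Most long CDR3 were only just long. Of the 4718 distinct clonotypes, 3730 (79.1%) had 17 residues, 827 (17.5%) had 18, 110 (2.33%) had 19 and 51 (1.08%) had 20 or more. The longest entry had 40 residues, and the 17 clonotypes of 24 or more residues were each a single read in 1 library. No clonotype of 20 or more residues exceeded 3 reads, and 48 of those 51 were seen in 1 read only. The most reads reached in a library were 217 for 17 residues, 241 for 18 and 19 for 19.

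Reads of 17 residues numbered 890 in treated tumor 1, 665 in distant tumor 1, 1854 in spleen 1, 652 in treated tumor 2, 466 in distant tumor 2 and 2523 in spleen 2. As shares of the library they came to 0.824% to 1.19% of a tumor library and to 1.96% and 1.90% of a spleen library, so the groups did not overlap. This was not particular to 17 residues. At 11 residues the tumors had 1.55% to 4.01% of reads and the spleens 4.12% and 4.21%. By reads the tumors also lay below both spleens at 19 and at 20 or more residues. Reads of 18 residues numbered 259, 118, 381, 528, 63 and 485 in the same order. Their share was 0.960% in treated tumor 2, 0.318% in treated tumor 1, 0.146% and 0.153% in the distant tumors and 0.402% and 0.366% in the spleens. Treated tumor 2 stood above all others at 18 residues, where 1 clonotype gave 241 of its 528 reads.

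In edgeR's quasi-likelihood test of reads per length class, 0 of 12 classes differed between treated and distant tumors (0.0%), with 2 at an unadjusted p under 0.05 and 4 by DESeq2. The class of 18 residues had a log2 fold change of 2.09 ± 0.68 (SE) in favour of the treated tumors with an edgeR adjusted p of 0.199, which was 0.0232 by DESeq2. Between tumors and spleens 1 of 12 classes differed (8.33%), the class of 20 or more residues, lower in tumors by a log2 fold change of -2.18 ± 0.53 with an edgeR adjusted p of 0.0490. It comprised 1 to 4 reads in a tumor library against 18 and 26 for the spleens, and the call was lost with TMM normalization (adjusted p = 0.0950), with the library number as a block (0.165), without the 10 most abundant clonotypes (0.180) and without either distant tumor or either spleen (0.0710 to 0.974). By clonotypes the class of 20 or more residues held 0.0109% to 0.0609% of a tumor library and 0.0256% and 0.0269% of the spleens. The spleens thus lay inside the range of the tumors, and the lower value in tumors was one of reads. The class of 17 residues was lower in tumors by a log2 fold change of -0.87 ± 0.35 in reads, edgeR adjusted p = 0.249.

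**Figure D2:**
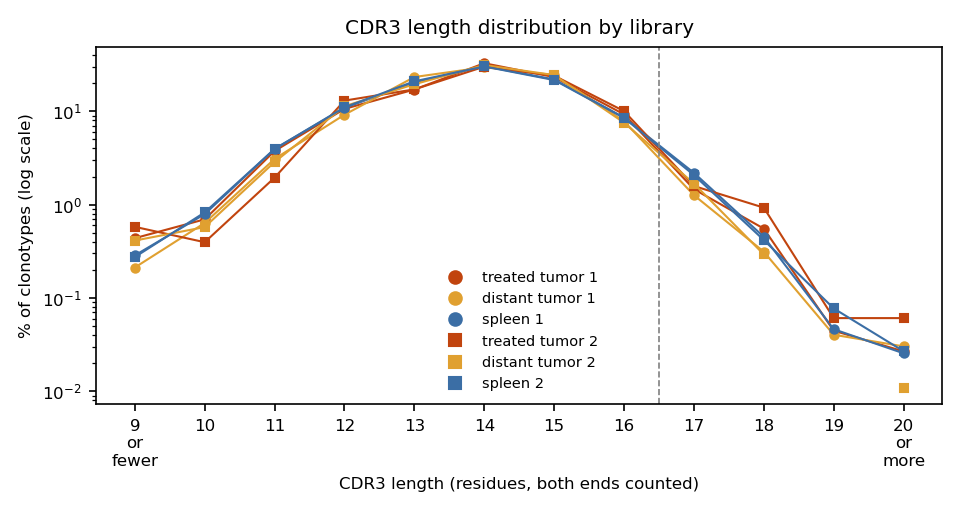
CDR3 length distribution of each library, as percent of clonotypes on a log scale against residues, with lengths at the ends pooled and a dashed line at the minimum of 17. The curves of the spleens nearly coincide, and treated tumor 2 is highest at 18 residues. Distant tumor 2 had no clonotype of 19 residues, so its line breaks there.

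The extra residues of long CDR3 lay mainly between the first 4 residues and the J end, and to a lesser degree in the J end. Each CDR3 was split into its first 4 residues, the run at its end that matched the germline J segment, and the core between them. Long CDR3 were on average 3.57 residues longer than the rest. The core was 2.65 ± 0.225 residues longer (SD over 6 libraries) and the matched J end 0.920 ± 0.191 residues longer. Mean core lengths were 7.02 to 8.16 residues in long and 4.29 to 5.34 in other CDR3. These differences follow in sum from the length rule and are given as a description. The first part was set to 4 residues in every CDR3, so V gene residues beyond these count as core. A longer V end and a longer middle cannot be told apart here.

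Long CDR3 used J segments with more germline residues and kept them whole more often. The mean germline J length was 6.93 to 7.01 residues in long and 6.67 to 6.78 in other CDR3. A J end without any missing germline residue was found in 29.1% to 56.3% of long clonotypes and in 15.8% to 33.2% of the others, a difference of 20.6 ± 7.02 percentage points (SD), higher in 6 of 6 libraries. The J end is a part of the length by which long CDR3 were chosen, so these values are a description too. Glycine, the residue that the D segments mostly encode, made up 23.7% to 30.3% of the core residues in long and 21.9% to 26.8% in other clonotypes, higher by 4.18 ± 1.86 points in 6 of 6 libraries (exact sign-flip permutation p = 0.03125, the smallest that 6 libraries allow).

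The J genes divided by germline length. Over all libraries 338 of 64886 clonotypes (0.521%) with a J segment of 6 residues were long, against 4226 of 117074 (3.61%) with 7 residues and 204 of 6642 (3.07%) with the single segment of 8. The lowest and highest library values were 0.295% and 0.662% for 6 residues and 2.53% and 4.04% for 7, so these classes did not overlap. TRBJ1-6, the segment of 8 residues, ran from 0.336% in treated tumor 2 to 4.60% in spleen 1. A J segment of 6 residues has to be joined to a longer remainder to reach 17, so part of this division is fixed by the length rule.

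With clonotypes counted once, edgeR's test called 7 of 12 J genes (58.3%) as used differently in long and other CDR3 of the same libraries. The 3 J genes of 6 residues were lower. TRBJ2-7 made up at least 18.7% of other clonotypes in each library and 3.83% to 6.84% of long ones, a log2 change of -1.98 ± 0.17 (SE, edgeR adjusted p = 3.63e-16). TRBJ1-1 changed by -2.99 ± 0.48 (edgeR adjusted p = 3.28e-07) and had no long clonotype in treated tumor 2 and distant tumor 2. TRBJ1-2 changed by -2.54 ± 0.61 (edgeR adjusted p = 2.34e-04) and had none in distant tumor 1.

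The 4 J genes called higher in long CDR3 all belong to the second J cluster. The shares of the J genes add up to a fixed total, so lower shares of some go with higher shares of others. The part of this in the higher shares was not tested. TRBJ2-3 had 897 long clonotypes, counted library by library, the most of any J gene, and a log2 change of 0.80 ± 0.16 (edgeR adjusted p = 1.37e-05). It made up 23.1% of the long clonotypes of treated tumor 2 and 9.40% of those of treated tumor 1, where its share among other clonotypes was higher. TRBJ2-4 rose by 0.81 ± 0.18 and TRBJ2-1 by 0.52 ± 0.15, each higher in 6 of 6 libraries. TRBJ2-2 rose by 0.87 ± 0.33, with an edgeR adjusted p of 0.0188. That call was kept under 7 alternatives and lost under 6, among them omission of distant tumor 2 or of either spleen. TRBJ2-5, with 685 long clonotypes, changed by 0.30 ± 0.16 (edgeR adjusted p = 0.0884). DESeq2 called 4 J genes, 1 higher and 3 lower, against 4 higher and 3 lower by edgeR with or without TMM normalization. The 3 lower J genes passed under every alternative tried.

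**Figure D3:**
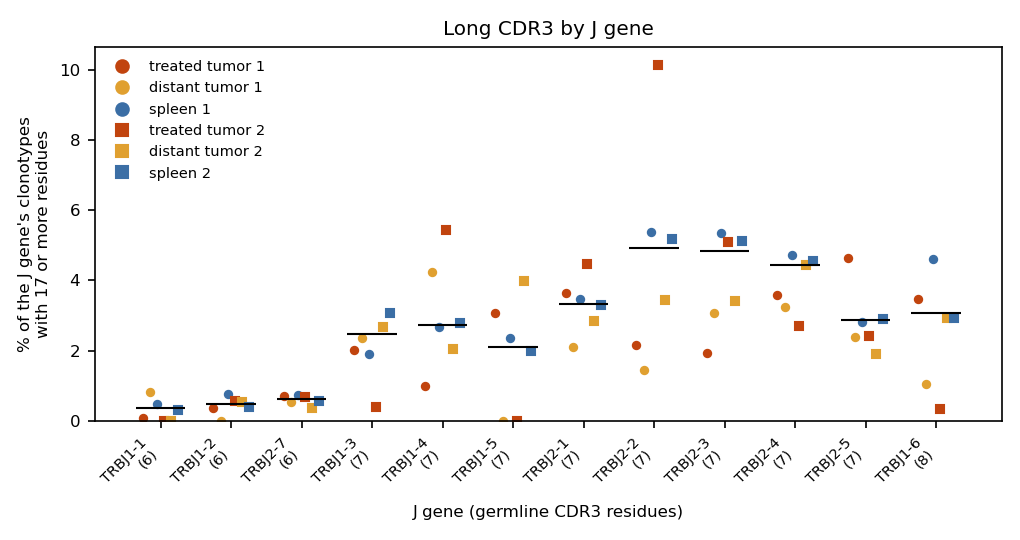
Percent of each J gene's clonotypes that were long, by library (points) and over all 6 libraries (horizontal lines), ordered by the number of germline CDR3 residues in brackets. The 3 segments of 6 residues stay below 1% in every library, and the point at the top is TRBJ2-2 in treated tumor 2, at 10.1%.

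Long CDR3 were also unevenly spread over V genes. The V gene brings the first residues of the CDR3, so part of this can be fixed by the length rule. The germline CDR3 residues of the V genes were not compared, and that part was not tested. Clonotypes of TRBV5 were long in 4.94% of cases, of TRBV2 in 4.88%, of TRBV1 in 3.91% and of TRBV13-2 in 3.49%, and those of TRBV20 in 0.388%. edgeR's test called 9 of 21 V genes (42.9%), 2 higher and 7 lower in long than in other clonotypes, and TMM normalization and DESeq2 each called 2 higher and 2 lower. TMM moved the median log2 change of the V genes from -0.42 to -0.29. The V calls depended on single libraries. Without spleen 1, spleen 2 or distant tumor 2 the test called 1 V gene, and the number over all such omissions ran from 1 to 10.

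TRBV20 was the V gene with the clearest difference. It gave 0, 1, 10, 1, 0 and 11 long clonotypes in treated tumor 1, distant tumor 1, spleen 1, treated tumor 2, distant tumor 2 and spleen 2, at most 0.613% of the long clonotypes of a library against 2.52% to 5.47% of the others. The log2 change was -2.85 ± 0.48 (edgeR adjusted p = 6.16e-07), and the call was kept under every alternative. TRBV31, the V gene that lies downstream of the J clusters in inverted orientation, changed by -1.20 ± 0.40 (edgeR adjusted p = 0.0353) and was lower in 6 of 6 libraries. TRBV4 changed by -1.10 ± 0.42, TRBV15 by -1.02 ± 0.38, TRBV26 by -0.96 ± 0.38, TRBV13-1 by -0.94 ± 0.37 and TRBV19 by -0.87 ± 0.37, with edgeR adjusted p-values of 0.0359 to 0.0443. Those 5 calls were lost with TMM normalization, and TRBV13-1 is close in sequence to the other TRBV13 genes, so its assignment could be split. In the spleens TRBV13-1 hardly differed, at 6.06% and 5.92% of long and 6.23% and 5.91% of other clonotypes. Its lower share among long clonotypes was seen in the tumors, which had 1 to 5 long TRBV13-1 clonotypes each.

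TRBV2 rose by a log2 change of 0.93 ± 0.34 and TRBV5 by 0.79 ± 0.31 (edgeR adjusted p = 0.0359 for both). TRBV5 made up 17.1% of the long clonotypes in treated tumor 1, 7.98% in distant tumor 1, 14.2% in spleen 1, 44.5% in treated tumor 2, 9.84% in distant tumor 2 and 14.6% in spleen 2. Among other clonotypes its shares were 8.92%, 9.43%, 6.87%, 14.5%, 10.1% and 7.00%. TRBV5 was therefore higher among long clonotypes in the treated tumors and the spleens and lower in both distant tumors. These shares count variants of large clonotypes, at 1 residue difference, as clonotypes of their own. Merging such variants removed 39.9% of the long and 33.4% of the other clonotypes of treated tumor 2. TRBV5 shares after merging are not given here. TRBV13-2, with 800 long clonotypes the most frequent, changed by 0.26 ± 0.31 (edgeR adjusted p = 0.499), and TRBV1, with 512, by 0.50 ± 0.33 (edgeR adjusted p = 0.217). TRBV16, with 366, changed by -0.47 ± 0.34 (edgeR adjusted p = 0.250). The difference of the long-to-other change between tumors and spleens, tested after seeing the data, passed for 0 of 21 V genes and 0 of 12 J genes in edgeR (both 0.0%), with 1 V gene and 0 J genes at an unadjusted p under 0.05.

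**Figure D4:**
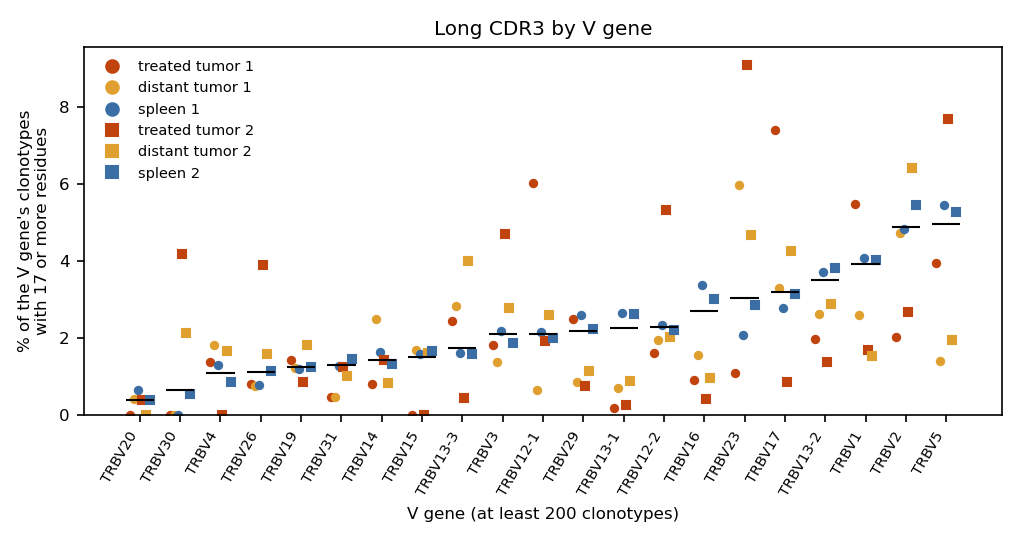
Percent of each V gene's clonotypes that were long, by library (points) and over all 6 libraries (horizontal lines), for V genes with at least 200 clonotypes. TRBV20 is lowest at 0.388% overall and TRBV5 highest at 4.94%.

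TRBV24, annotated as a pseudogene, was looked at after its values were seen. In treated tumor 2 all 61 of its reads, in 5 clonotypes, were long, and in the other libraries it had 4 to 49 reads with 0 to 5 of them long.

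No V or J gene's long reads passed the test between the tissues. Of 42 rows of V gene and length class, edgeR called 0 between treated and distant tumors and 0 between tumors and spleens (both 0.0%). Of the 19 rows for long CDR3, 2 and 5 reached an unadjusted p of 0.05 in edgeR, and 2 and 3 passed by DESeq2. TRBV5 came closest between the tumors. Its long reads numbered 301 in treated tumor 1, 50 in distant tumor 1, 366 in spleen 1, 647 in treated tumor 2, 50 in distant tumor 2 and 467 in spleen 2. Single clonotypes gave 217 of those in treated tumor 1 and 241, 205 and 74 of those in treated tumor 2. The treated tumors were higher in both pairs, with a log2 fold change of 3.08 ± 0.71 (SE) and an edgeR adjusted p of 0.0633. This p was 0.0366 with TMM normalization, 3.13e-03 with clonotypes counted once and 2.94e-03 with the library number as a block, and it was 0.207 without distant tumor 1, 0.251 without spleen 1 and 0.265 without spleen 2. Counting clonotypes once kept variants of these large TRBV5 clonotypes, at 1 residue difference, as clonotypes of their own. A fit with such variants merged was not run for this comparison. TRBV15 had no long read in either treated tumor against 19 and 22 in the distant tumors and 70 and 115 in the spleens, edgeR adjusted p = 0.0730 between the tumors. For TRBV15 it was 0.0366 with TMM normalization, 4.30e-04 by DESeq2 and 0.0938 with the block, and omission of single libraries gave 0.0282 to 0.395.

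For J genes the fit called 1 of 24 rows between treated and distant tumors (4.17%), a row of CDR3 of 16 residues or fewer, and 0 of 24 between tumors and spleens (0.0%). The long reads of all 12 J genes had a negative log2 fold change in tumors against spleens, with a median of -1.05 beside -0.42 over all 24 rows. In edgeR 0 of these 12 reached an unadjusted p of 0.05, and 0 were called by DESeq2.

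Long CDR3 were a small part of the large clonotypes, as of all clonotypes. Those with 10 or more reads numbered 31 in treated tumor 1, 26 in distant tumor 1, 15 in treated tumor 2, 11 in distant tumor 2, and 1 and 3 in the spleens. In the tumors these were 2.32%, 2.41%, 2.43% and 1.84% of all clonotypes with 10 or more reads. Of clonotypes of any size, 2.09%, 1.65%, 2.64% and 1.99% were long there. In the spleens the shares were 0.435% and 1.07%, against 2.72% and 2.60% at any size. Among the 100 most abundant clonotypes of a library there were 1, 0, 1, 2, 0 and 0 long ones in treated tumor 1, distant tumor 1, spleen 1, treated tumor 2, distant tumor 2 and spleen 2. Mean reads per clonotype were lower for long than for other CDR3 in every library. They were 5.02 against 7.32 in treated tumor 1, 4.98 against 8.21 in distant tumor 1, 6.87 against 8.42 in treated tumor 2 and 2.90 against 4.49 in distant tumor 2. In the spleens they were 1.35 against 1.52 and 1.35 against 1.49. The log2 ratio was -0.42 ± 0.248 (SD), lower in 6 of 6 libraries, with an exact sign-flip permutation p of 0.03125 and an adjusted p of 0.0417.

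The share of clonotypes seen in 1 read was 62.3% to 79.8% in long and 69.2% to 80.8% in other CDR3 of the tumors, lower in long by 5.52 ± 3.57 points on average. In the spleens it was 76.7% and 76.8% against 71.9% and 72.6%, higher in long by 4.48 ± 0.436 points. Over the 6 libraries the difference was -2.19 ± 5.86 points (exact permutation p = 0.375). Tumors and spleens differed in this by an exact permutation p of 0.0667, the smallest that 4 against 2 allow.

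The abundant long clonotypes are named here by V gene, J gene, CDR3 length and the residues of the core. In treated tumor 1 the largest was TRBV5 with TRBJ2-5, 17 residues, core LVPGLGG, with 217 reads, 18.5% of the library's long reads and rank 42 among its clonotypes. It had 0 reads in the other 5 libraries, and its share was at least 71.6-fold higher than in distant tumor 1, where a count of 0 was taken to allow 3 reads. It was followed there by TRBV13-2 with TRBJ2-1, core ESGTGA, with 53 reads, TRBV12-1 with TRBJ2-1, core PRTGGA, with 45, and TRBV1 with TRBJ1-6, 18 residues, core APGTGGG, with 43. None of these 4 was seen in another library.

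In treated tumor 2 the largest was TRBV5 with TRBJ2-3, 18 residues, core QDYRLGS, with 241 reads, 20.3% of the long reads and rank 28. Next came TRBV5 with TRBJ2-2, core QEAGGAD, with 205 reads at rank 38. TRBV3 with TRBJ2-1, core LATGGA, had 85 reads, and TRBV5 with TRBJ2-1, 18 residues, core PRDWGGVG, had 74. The 3 largest held 44.7% of the long reads, against 26.8% in treated tumor 1, 15.4% and 11.7% in the distant tumors and 1.44% and 1.12% in the spleens. Each of the 4 had 0 reads in the other 5 libraries. The 3 TRBV5 clonotypes were accompanied by 16, 13 and 8 clonotypes of 1 residue difference with the same V gene, J gene and length, most of them single reads. Merging such near variants removed 39.9% of the long clonotypes of treated tumor 2, 13.2% of treated tumor 1, 12.9% and 2.19% of the distant tumors and none in the spleens.

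The distant tumors had smaller long clones. In distant tumor 1 the largest was TRBV13-2 with TRBJ2-5, core VRDWGGG, with 55 reads. TRBV13-2 with TRBJ2-5, 18 residues, core DPGLGGF, and TRBV16 with TRBJ1-1, core PEGIQGA, each had 35 reads, and TRBV12-1 with TRBJ1-4, core HGTGGAG, had 31 and was also seen in 2 reads of spleen 1. In distant tumor 2 the largest, TRBV13-2 with TRBJ2-3 and core AGLGVLG, had 30 reads and 2 reads in spleen 2. TRBV12-2 with TRBJ2-3, core LVGQGTR, followed with 17 reads. TRBV16 with TRBJ2-5, core LDWGGAD, and TRBV3 with TRBJ2-4, core WGLGGT, had 15 reads each and 1 and 2 reads in spleen 2. So 3 of the 4 largest of distant tumor 2 were found in the spleen of the same number. Of the 4 of distant tumor 1 only the clonotype with core HGTGGAG was, and of the 4 of each treated tumor none was.

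In the spleens the largest long clonotypes were TRBV1 with TRBJ2-4, core TGTGGPY, with 16 reads in spleen 1, and TRBV2 with TRBJ2-3, core QSGLGA, with 13 reads in spleen 2. The second were TRBV13-2 with TRBJ2-4, core DAPGGF, with 9 reads and TRBV13-2 with TRBJ2-3, core DNWGAL, with 12. None was seen in a tumor. The longest clonotypes with 10 or more reads had 19 residues. They were TRBV1 with TRBJ2-1, core ALFVSGGD, with 19 reads in treated tumor 1, and TRBV17 with TRBJ2-3, core RAGLGGRT, with 16 reads in distant tumor 1 and 4 in spleen 1.

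Just below the minimum, at 16 residues, the largest clone of each library had more reads than its largest long clone. That class also held more clonotypes, 660 to 7580 in a library against 104 to 1849 of 17 residues. TRBV12-2 with TRBJ2-2, core LEAGE, had 1560 reads in treated tumor 1 and 379 in distant tumor 1, and TRBV5 with TRBJ1-6, core QDPH, had 1473 reads in treated tumor 2. TRBV5 with TRBJ2-2, core QDWGGG, had 273 in distant tumor 2, TRBV3 with TRBJ2-4, core LTGGA, had 69 in spleen 1, and TRBV13-2 with TRBJ2-7, core DAGWGGA, had 28 in spleen 2.

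Long clonotypes were rarely shared between libraries. Of the 4718, 4671 (99.0%) were in 1 library, 44 in 2, 3 in 3 and none in more, whereas 94.4% of other clonotypes were in 1 library. The share of a library's long clonotypes seen in any other library was 2.99% in treated tumor 1, 6.75% in distant tumor 1, 1.24% in spleen 1, 2.31% in treated tumor 2, 12.6% in distant tumor 2 and 1.34% in spleen 2. For other clonotypes it was 12.3%, 15.7%, 12.0%, 13.1%, 20.1% and 9.08%. The difference was -9.19 ± 1.41 points (SD), lower in 6 of 6 libraries, exact sign-flip permutation p = 0.03125, adjusted p = 0.0417. The 6 libraries came from 2 mice, and a clonotype shared by 2 libraries counts in both. The 6 differences are therefore not independent, and the p-values can be too small. Long CDR3 also had a lower mean of reads per clonotype, although in each tumor a smaller share of them than of the others was seen in 1 read. Without clonotypes of 1 read the difference in sharing was -14.4 points (exact permutation adjusted p = 0.03125).

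Among tumor clonotypes with 10 or more reads, sharing with the other tissues of the same number was mostly lower for long CDR3, by amounts that varied with the pair. Of 31 long ones in treated tumor 1, 2 (6.45%) were in distant tumor 1 and 3 (9.68%) in spleen 1, against 21.3% and 25.8% of the others. Of 26 in distant tumor 1, 2 (7.69%) were in treated tumor 1 and 6 (23.1%) in spleen 1, against 22.8% and 34.98%. Of 15 in treated tumor 2, 2 (13.3%) were in distant tumor 2 and 0 in spleen 2, against 34.7% and 43.1%. Of 11 in distant tumor 2, 2 (18.2%) were in treated tumor 2 and 6 (54.5%) in spleen 2, against 22.1% and 55.4%, so this library differed little between the classes. These counts are small and are given without a test.

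Sharing across the numbers was lower still. A long clonotype was seen under the other number in 0% to 0.613% of cases and another clonotype in 5.59% to 10.7%, a difference of -7.06 ± 1.73 points in 6 of 6 libraries (exact permutation p = 0.03125, adjusted p = 0.0417). These 6 differences were not independent either. The 2 spleens shared 8 long clonotypes, 0.471% of those of spleen 1 and 0.346% of those of spleen 2, against 10.2% and 7.14% of other clonotypes. No long clonotype was shared between tumors of different numbers, where 0.985% to 2.08% of the others were. Within a number the treated and distant tumors shared 3 long clonotypes each time, 1.28% and 1.84% of the long clonotypes of number 1 and 1.73% and 1.64% of those of number 2. For the others these shares were 5.24%, 5.90%, 6.26% and 4.43%. The closest pair was distant tumor 2 with spleen 2, which shared 21 long clonotypes, 11.5% of those of the tumor and 0.907% of those of the spleen.

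**Figure D5:**
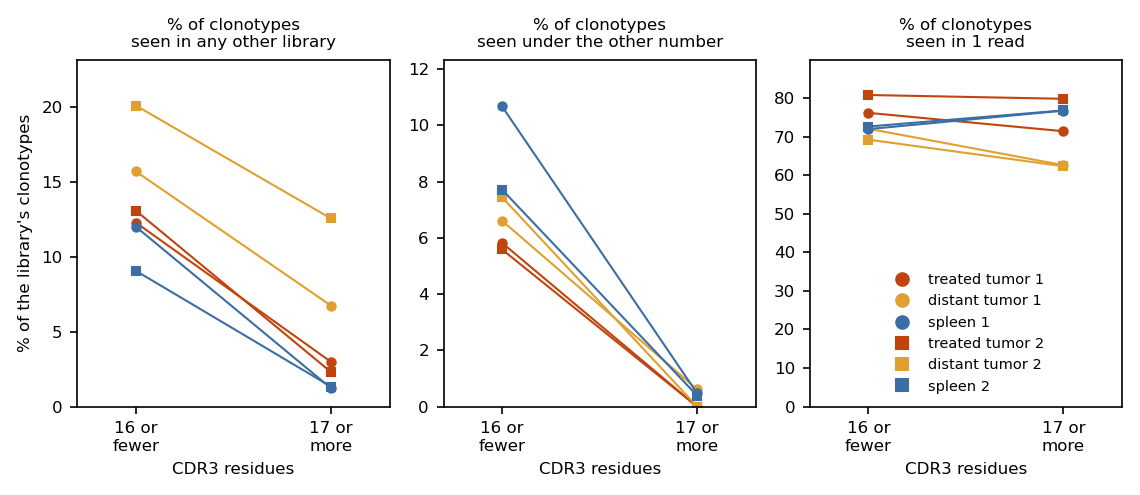
Percent of each library's clonotypes that were seen in any other library (left), in a library of the other number (middle) and in 1 read only (right), for CDR3 of 16 residues or fewer and of 17 or more, with 1 line per library. All 6 lines fall in the first 2 panels, and in the third the 4 tumor lines fall and the 2 spleen lines rise.

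The 3 long clonotypes found in 3 libraries were each in all tissues of 1 number. TRBV13-2 with TRBJ1-3, 18 residues, core DRGQGAS, had 21 reads in treated tumor 1, 4 in distant tumor 1 and 1 in spleen 1. TRBV13-3 with TRBJ2-4, 18 residues, core DPGTGGAR, had 4, 14 and 3 reads in the same order. TRBV5 with TRBJ2-4, core QTGDWG, had 2 reads in treated tumor 2, 13 in distant tumor 2 and 1 in spleen 2. Fisher's exact test of the 2 tumor libraries gave adjusted p-values of 1.07e-03, 0.0196 and 9.65e-04. The first had the higher share in treated tumor 1, and the other two had theirs in the distant tumors. In both tumors with 10 or more reads were TRBV2 with TRBJ1-4, core QDPARV, with 22 reads in treated tumor 1 and 28 in distant tumor 1 (exact adjusted p = 0.405), and TRBV13-2 with TRBJ2-4, core DLGQGVG, with 31 in treated tumor 2 and 12 in distant tumor 2 (exact adjusted p = 0.0668).

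Fisher's exact tests, which compare 2 libraries and not the conditions, called most clonotypes of any length with at least 10 reads in the 2 tumors of a number together, 95.8% of 2250 for number 1 and 94.0% of 1113 for number 2. Of 56 long clonotypes tested for number 1, 30 were called with the larger share on the treated side, where 54.3% of all lengths were, and 25 on the distant side, where 41.6% were. For number 2, 14 of 25 were larger on the treated side (48.2% of all lengths) and 10 on the distant side (45.8%). These shares are near the background, and 3 long clonotypes of each number were present in both tumors.

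Residue motifs that the D segments can encode were found in more of the long cores. Searched were GQG and DRG from TRBD1, GLG and DWG from TRBD2, and GTG, which both can give. GLG was in 7.51% to 20.1% of long and 1.84% to 2.76% of other clonotypes, a difference of 10.4 ± 4.48 points (SD). DWG was in 6.84% to 19.6% and 1.96% to 4.54%, a difference of 10.0 ± 4.64 points. GQG differed by 2.61 ± 2.15 points, and all 3 were higher in 6 of 6 libraries (exact sign-flip permutation p = 0.03125, adjusted p = 0.0625 over 6 tests). GTG differed by 8.26 ± 4.77 points, higher in 5 of 6, and DRG by 1.00 ± 1.21 points (exact permutation p = 0.0625 and 0.156). A motif of TRBD1 and one of TRBD2 in the same CDR3 were seen in 23 long and 56 other entries. These were 0% to 0.605% of the long and 0% to 0.0427% of the other clonotypes of a library. The share was higher in long CDR3 in 3 of 6 libraries (exact sign-flip permutation p = 0.25). No motif passed the adjusted threshold. Against CDR3 of 14 to 16 residues, the differences over libraries were 3.86 to 17.4 points for GLG and 2.46 to 15.2 for DWG. They were -0.459 to 6.09 points for GQG, -1.35 to 12.4 for GTG and -0.622 to 1.76 for DRG. A longer core offers more positions for a motif, and the part of this in the differences was not tested.

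Entries with a stop codon mark, which cannot give a receptor, were long far more often. Of such entries with the same ends, 27.2% were of 17 or more residues in treated tumor 1, 32.6% in distant tumor 1, 21.3% in spleen 1, 24.5% in treated tumor 2, 26.7% in distant tumor 2 and 24.4% in spleen 2. In unmarked entries the shares were 1.65% to 2.72%. The difference was 23.8 ± 4.22 points (SD), higher in 6 of 6 libraries (exact sign-flip permutation p = 0.03125). A longer sequence has more codons in which a stop can fall, and the part of this in the difference was not tested.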

How the data were processed

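TCR-β cDNA was amplified by adaptor-ligation PCR with constant region primers and sequenced on a MiSeq, per the labels' protocols, in 6 libraries of 2 treated tumors, 2 distant tumors and 2 spleens. The authors deposited whole read counts per V gene, J gene and CDR3 amino acid sequence, per the file headers, and each entry's percent of the library, rounded to 2 decimals, which was not used. For the aligner, germline reference and any error correction, the sources used here give nothing. Libraries held 41115 to 132494 reads with CDR3 ends as defined, and the reads left out for other ends were 1.80% to 2.85% of unmarked reads. Entries with a stop mark were used in 1 comparison only.

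Long CDR3 had at least 17 residues. Shares were compared with exact permutation tests over libraries, long and other clonotypes with exact sign-flip tests within libraries, and counts by length, V and J gene with edgeR 4.0.16 quasi-likelihood tests on library totals with low counts filtered and Benjamini-Hochberg adjustment over all rows of each table (threshold 0.05). The V and J tests of long against other counted each clonotype once, with the library as a block. DESeq2 1.42.0, TMM, other length minimums, merging of CDR3 that differ in 1 residue from one with 20 or more times the reads, thinning to 41115 reads and omission of single libraries were alternatives. Intervals are Wilson intervals in Python 3.11.15 with scipy 1.17.1, and a count of 0 was taken to allow 3 reads. The edgeR code was tested on simulated data.

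Same-numbered libraries were taken as one animal for pairs of tumors, since the design names 2 mice, and p-values measure the spread between these libraries. The sign-flip tests take the 6 libraries as independent although they came from 2 mice, so their p-values can be too small. Members, gene lists and tests were chosen with earlier results of these data known. Named were the V and J genes past the threshold (at most 10 V genes in each direction), the 4 V and 4 J genes with most long clonotypes, the 4 largest long clonotypes of each tumor and 2 of each spleen, those in most libraries or with 10 reads in both tumors of a number, and the longest with 10 reads. TRBV16 was named as the fourth V gene by that count. Whole long CDR3 are not printed, only their cores. All 35 V and J gene symbols matched GENCODE M21.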

Additional observations from a re-analysis of the deposited data

Results flagged for a closer look

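The share of clonotypes seen in 1 read moved in opposite directions in tumors and spleens. Long minus other was -4.77 and -0.988 percentage points in treated tumors 1 and 2, -9.43 and -6.90 points in distant tumors 1 and 2, and 4.79 and 4.17 points in spleens 1 and 2. The means of tumors and spleens differed by -10.0 points, exact permutation p = 0.0667, the smallest that 4 libraries against 2 allow. Mean reads per clonotype, which move with this share, were 2.90 to 8.42 in tumors and 1.35 to 1.52 in spleens, and their part in the difference was not tested.

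TRBV16 made up a smaller share of long than of other clonotypes in all 4 tumors and a larger one in both spleens. Its shares of long and other clonotypes were 2.14% and 5.03% in treated tumor 1, 9.20% and 9.80% in distant tumor 1, 1.16% and 7.90% in treated tumor 2 and 4.92% and 10.4% in distant tumor 2. In the spleens they were 8.65% and 6.94% and 8.12% and 7.01%. The tumors' mean difference lay 5.35 points lower (tumors minus spleens -5.35). edgeR's test of the difference between tumors and spleens gave a log2 value of -1.32 ± 0.67 (SE) with an adjusted p of 0.534.

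Outside the long CDR3 as defined, 350 unmarked entries had 17 or more residues without a cysteine at the start or without a phenylalanine or tryptophan at the end. They numbered 23 to 117 in a library, and none exceeded 3 reads.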

How the results depend on the processing

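The clonotype share of long CDR3 in tumors minus spleens, -0.567 points, changed sign to 0.0677 with a minimum of 18 residues and to 0.232 without clonotypes of 1 read. The single-read difference of long and other clonotypes, -2.19 points, became 0.261 with a minimum of 16 residues and 1.70 with 18. Neither measure passed its exact test in the main setting or in these 4 cases, and the causes were not tested. The treated tumors kept the higher share than the distant tumors under every alternative run, by 0.273 to 0.818 points of clonotypes when single libraries were left out.

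With a minimum of 50 reads in Fisher's exact test, long clonotypes higher in treated and in distant tumors numbered 2 and 1 for number 1 and 7 and 0 for number 2, and with 5 reads those higher in distant tumors numbered 45 and 34, because more or fewer clonotypes enter. For length classes, calls between treated and distant tumors (main 0) were 4 by DESeq2 and 3 with clonotypes counted once, and between tumors and spleens (main 1) 4 by DESeq2 and 0 with TMM, with clonotypes counted once, with the replicate block and without the 10 most abundant clonotypes. For V genes by length class (main 0 in both), calls between treated and distant tumors were 4 with TMM, 2 by DESeq2, 1 without a filter, 2 with clonotypes counted once, 3 with the replicate block and 3 without the 10 most abundant clonotypes, and between tumors and spleens 5 by DESeq2, 4 with clonotypes counted once and 1 with the replicate block. For J genes by length class, the call between treated and distant tumors (main 1) was 0 with TMM, by DESeq2, with clonotypes counted once, with the replicate block and without the 10 most abundant clonotypes, and tumors against spleens (main 0) gave 1 without those clonotypes. For long against other CDR3, V gene calls (main 9) were 2 by reads, 4 with TMM, 4 by DESeq2 and 1 with 18 residues, and J gene calls (main 7) were 4 by reads and 4 by DESeq2.

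Leaving out 1 library at a time gave 0 to 2 and 0 to 4 called length classes, 0 to 15 and 0 to 13 V rows and 0 to 3 and 0 to 1 J rows, each for treated against distant tumors and tumors against spleens, and 1 to 10 V genes in long against other CDR3. The highest V row counts came without treated tumor 1. Where an arm kept 1 library, it was assumed to vary like the other groups. With 5 libraries the sign-flip tests cannot go below 0.0625, and the values ran from -0.473 to -0.357 for reads per clonotype (log2), -9.52 to -8.87 and -7.36 to -6.43 points for sharing with any library and with the other number, and 22.4 to 24.9 points for stop-marked entries.

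Of single genes and lengths, these changed sign, none of them past the threshold. TRBV1 was -0.060 by reads, TRBV13-2 -0.21 with 18 residues, TRBV16 0.16 without clonotypes of 1 read and TRBJ2-5 -0.047 by DESeq2. Between treated and distant tumors, length 17 was -0.11 by DESeq2, and length 19 was -0.20 with TMM, -0.35 by DESeq2, -0.28 without the 10 most abundant clonotypes, -1.28 without treated tumor 1 and -0.75 without distant tumor 2, the omissions of single libraries running from -1.28 to 6.91. Between tumors and spleens, length 18 was 0.11 with clonotypes counted once and 0.11 without the 10 most abundant.

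With the pairing of numbers as a block, the exact sign-flip permutation test of the shares had p = 0.5, the smallest that 2 pairs allow. The values were 0.546 and 0.654 points. Deviations of same-numbered treated and distant tumors from their group means correlated at 0.51 over length classes, -0.02 over V rows and -0.39 over J rows, so the numbers did not move together in every table. Same-numbered tumors shared 4.43% to 6.26% of clonotypes of 16 residues or fewer, and tumors of different numbers 0.985% to 2.08%. With 2 mice, single-read clonotypes in the majority and no molecular identifiers, small differences in long CDR3 were not detectable here.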
